A study of Homo sapiens with 6 samples.

Results

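Keratins and vimentin were compared between lenvatinib-resistant and lenvatinib-sensitive cells as the 10 gene symbols KRT5, KRT7, KRT8, KRT17, KRT18, KRT19, KRT20, KRT23, KRT80 and VIM, picked by name from 24432 symbols. All 10 were present in each of 6 RNA-seq libraries. They are type II keratins (KRT5, KRT7, KRT8 and KRT80), type I keratins (KRT17, KRT18, KRT19, KRT20 and KRT23) and the vimentin gene VIM. The resistant group held 3 libraries of PLC/PRF/5 cells, a human cell line grown from a hepatocellular carcinoma, with genotype given as lenvatinib resistant and treatment as lenvatinib, a kinase inhibitor of VEGF and FGF receptors. These cells had been passaged under doses stated as 20 µmol/L at first, raised by 0.5 mmol/L per passage to 40 mmol/L, so the units given for the start and for the steps do not match. The sensitive group held 3 libraries labelled as the same line, with genotype WT and treatment control, and both groups grew in medium with 10% serum. Drug exposure and resistance came together in the resistant libraries and cannot be told apart. The labels do not say how many resistant clones were kept or whether replicates were separate cultures, so a p-value measures the spread between these libraries, which may be technical.

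Keratins form the intermediate filaments of epithelial cells and assemble as obligate heteropolymers of a type I and a type II chain, so the chains are usually made in matched amounts and an unpaired chain is degraded. Hepatocytes are known for a simple filament of KRT8 and KRT18, whereas bile duct cells add KRT7 and KRT19. Vimentin is a type III chain that assembles on its own and marks mesenchymal cells, but many carcinoma lines in culture carry it beside keratins.

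Values are FPKM, that is, reads or fragments scaled to transcript length and to library depth, so levels can be set against each other between genes. Summed FPKM ran from 366048 to 377923 in resistant and from 410492 to 475088 in sensitive libraries. Across tested genes, libraries correlated at a Pearson's r of 0.994 to 0.996 among resistant, 0.952 to 0.995 among sensitive and 0.680 to 0.706 between groups, where genes are not independent replicates. Sensitive replicate 3 stood furthest from its group. Of 20 hepatocyte markers 18 were tested and all 18 fell, with summed levels of 23.0 to 54.5 FPKM in resistant and 5279 to 5465 FPKM in sensitive libraries, so the markers of the labelled cell type were close to absent from the resistant libraries. Among all tested genes 32.5% were called lower, and several of the 18 passed the filter below only through the sensitive group. Their part in the keratin levels was not tested. With this and the low correlation between groups, it is uncertain that the resistant libraries come from the line their labels give, which was not tested, and a difference between 2 sources cannot be told apart from one between resistant and sensitive cells in any result here. A gene was tested when it reached 1 FPKM in at least 3 libraries, by limma on log2(FPKM + 1) with Benjamini-Hochberg adjustment over 11694 tested genes, and was called at an adjusted p under 0.05.

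Keratin genes are copies of each other at the ends of the rod domain, which matters for how reads were assigned, and the longest coding run shared by KRT17 and its close copy KRT16 is shown here. Both sequences were read from GENCODE release 29 transcripts, 5′ to 3′, with the shared run in capitals and 15 bases on each side in lower case. KRT17 and KRT16, both on chromosome 17, shared a run of 61 bases, in the stretch that encodes the end of the rod.
KRT17: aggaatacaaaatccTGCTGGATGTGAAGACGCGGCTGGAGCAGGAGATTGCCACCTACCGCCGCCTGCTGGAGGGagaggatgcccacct
KRT16: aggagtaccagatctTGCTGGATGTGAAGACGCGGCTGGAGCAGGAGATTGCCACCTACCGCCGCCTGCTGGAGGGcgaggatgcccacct
Other members share coding runs too, among them 33 bases between KRT80 and KRT7, 23 bases between VIM and KRT8 and 15 bases between KRT18 and KRT8. A read that lies wholly inside a shared run fits both genes, while a read longer than the run reaches bases that differ. How the authors' counting treated reads that fit both genes is not given in the sources used here.

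Of the 10 genes, 7 passed the filter, of which 4 rose (KRT7, KRT80, KRT17 and VIM) and 3 fell (KRT8, KRT18 and KRT23) in resistant cells. Among all tested genes 67.7% were called, 35.2% as higher and 32.5% as lower, so a call as such does not set these genes apart. KRT7, KRT80 and KRT17 stayed under 1 FPKM in every sensitive library and KRT23 in every resistant one. These 4 passed the filter through the other group, which fixed their direction. KRT8, KRT18 and VIM were above 1 FPKM in all 6 libraries, and KRT5, KRT19 and KRT20 were below the filter. In these bulk samples fewer cells making a keratin and less of its RNA per cell cannot be told apart.

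**Figure D1:**
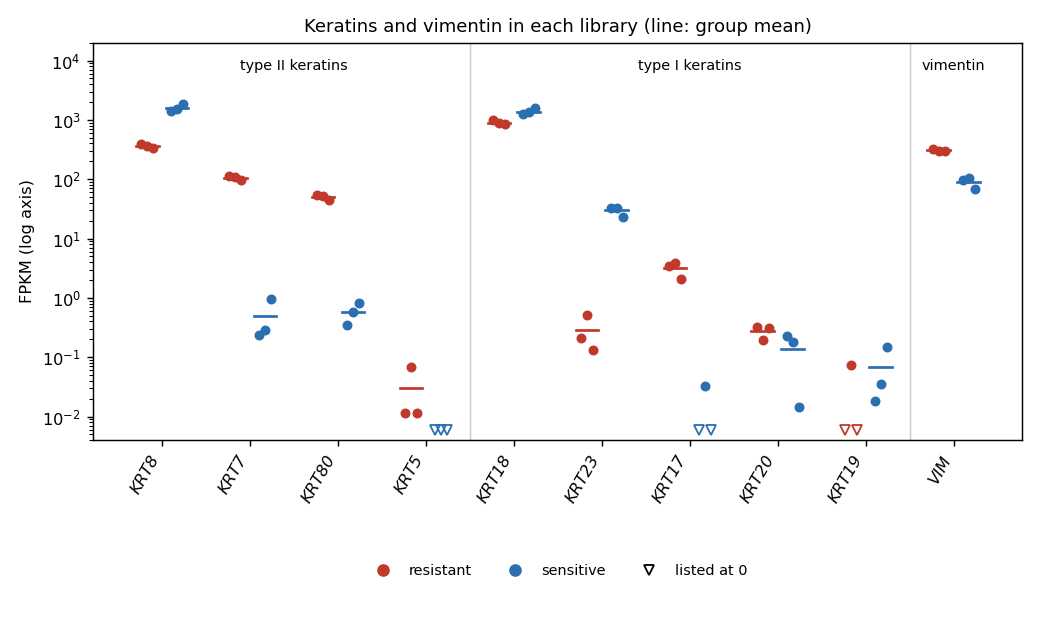
Level of each gene in FPKM on a log axis, with 1 point per library, resistant in red on the left and sensitive in blue on the right of each gene, a line at the group mean and open triangles for values listed at 0. KRT18 and KRT8 were the highest in both groups, while KRT7 and KRT80 exceeded 45 FPKM in resistant and stayed under 1 FPKM in sensitive libraries.

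KRT8, the type II keratin of simple epithelia and of hepatocytes, was at 389, 361 and 336 FPKM in resistant libraries, against 1427, 1543 and 1832 FPKM in sensitive ones. No resistant value reached a sensitive one, and KRT8 ranked 137th to 149th among all genes in resistant and 25th to 31st in sensitive libraries. It fell by 2.14 on the log2 scale (SE 0.127, limma adjusted p = 9.83e-06), which put its mean FPKM at 0.226 of the sensitive mean. Groups did not overlap for 74.4% of tested genes, so the separation of KRT8 is common here.

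KRT7, the type II keratin of bile ducts and other simple ducts, was at 114, 107 and 96.9 FPKM in resistant libraries, against 0.237, 0.290 and 0.968 FPKM in sensitive ones. The resistant values lay close together, and the highest sensitive value was that of replicate 3. Its log2 fold change was 6.19 (SE 0.198, limma adjusted p = 7.94e-07). The antisense gene KRT7-AS overlaps it on the other strand and stood at 1.88, 1.44 and 0.657 FPKM in resistant libraries, against 0, 0 and 0.0608 FPKM in sensitive ones. The strand setting is not given in the sources used here, so reads of KRT7 and KRT7-AS cannot be told apart where they overlap.

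KRT80, a type II keratin associated with desmosomes in differentiating epithelia, was at 54.1, 52.8 and 45.2 FPKM in resistant libraries, against 0.350, 0.572 and 0.815 FPKM in sensitive ones. Its log2 fold change was 5.04 (SE 0.152, limma adjusted p = 6.59e-07). KRT80 and KRT7 are direct neighbours at one end of the type II cluster, and both were nearly silent in sensitive and abundant in resistant libraries. KRT80 stood at 0.478 ± 0.0135 of KRT7 in resistant cells (mean ± SD, n = 3).

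KRT5, the type II keratin of basal cells in stratified epithelia, was near the limit of detection. It was at 0.0114, 0.0681 and 0.0113 FPKM in resistant libraries and listed at 0 in all 3 sensitive ones. The largest step that fits these values was 0.0114 FPKM. With that step taken as 1 read or fragment, the resistant values correspond to 1, 6 and 1 reads. No fold change is given for it.

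Among the type I chains, KRT18, the partner of KRT8, was the most abundant keratin in resistant cells. It was at 980, 879 and 844 FPKM in resistant libraries, against 1239, 1332 and 1576 FPKM in sensitive ones. The groups did not overlap, although the gap between the highest resistant and the lowest sensitive value was small beside that of KRT8. KRT18 fell by 0.61 on the log2 scale (SE 0.127, limma adjusted p = 0.00443). KRT8 and KRT18 are neighbours on chromosome 12 and overlap on opposite strands in GENCODE release 29, so reads in the overlap cannot be told apart. That release also lists 50 pseudogenes named after KRT8 and 67 after KRT18, and the files hold 0 of these symbols.

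KRT23, a type I keratin seen in several carcinomas, was at 0.208, 0.506 and 0.134 FPKM in resistant libraries, against 33.0, 33.3 and 23.1 FPKM in sensitive ones. It fell by 4.58 on the log2 scale (SE 0.191, limma adjusted p = 2.14e-06). Resistant replicate 2 had the highest resistant value. The same library had the highest resistant values of the hepatocyte transcripts SERPINA1, at 20.9 FPKM, and FGA, at 2.46 FPKM, and the highest resistant sum of hepatocyte markers, at 54.5 FPKM. Their part in the KRT23 value was not tested.

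KRT17, a type I keratin of skin appendages that is induced on injury in the epidermis, was at 3.50, 3.87 and 2.06 FPKM in resistant libraries, against 0, 0.0329 and 0 FPKM in sensitive ones. Its log2 fold change was 2.01 (SE 0.177, limma adjusted p = 6.74e-05), and 4.83 with a pseudocount of 0.1 in place of 1. Its close copy KRT16 was at 11.8, 10.6 and 10.4 FPKM in resistant libraries and listed at 0 in the sensitive ones, so the split of reads between KRT16 and KRT17 is uncertain. The copy KRT14 was listed at 0 in all resistant libraries and in 2 of 3 sensitive ones, with 0.123 FPKM in sensitive replicate 1.

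KRT19, the type I keratin that usually pairs with KRT7 in bile ducts, was nearly absent throughout. It was at 0, 0.0731 and 0 FPKM in resistant libraries, against 0.0181, 0.0359 and 0.148 FPKM in sensitive ones. With the largest fitting step taken as 1 read, these correspond to 0, 4 and 0 reads and to 1, 2 and 8 reads. The groups overlapped, so KRT7 rose while KRT19 stayed at or under 0.148 FPKM in every library. KRT20, a keratin of gut epithelium and of the urothelial surface, was at 0.326, 0.197 and 0.309 FPKM in resistant libraries, against 0.224, 0.180 and 0.0143 FPKM in sensitive ones. These correspond to 23, 14 and 22 reads and to 16, 13 and 1 reads, and the groups overlapped.

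VIM was at 328, 303 and 301 FPKM in resistant libraries, against 96.3, 106 and 68.9 FPKM in sensitive ones. The sensitive cells thus already carried vimentin, and resistant levels were 3.43 times theirs by mean FPKM. The log2 fold change was 1.79 (SE 0.167, limma adjusted p = 8.92e-05), and 1.61 without sensitive replicate 3, which had the lowest VIM value. The antisense gene VIM-AS1, which overlaps VIM on the other strand, rose with a log2 fold change of 0.80 (limma adjusted p = 0.00458), from reads that cannot be told apart from those of VIM where the genes overlap.

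The summed FPKM of the 9 keratins was lower in resistant cells, at 1541, 1405 and 1324 FPKM, against 2700, 2910 and 3433 FPKM in sensitive cells. The composition of this pool is a description of each library, with no test. KRT18 made up 63.3 ± 0.640% of the pool in resistant and 45.9 ± 0.0624% in sensitive libraries (mean ± SD, n = 3 each here and below). KRT8 made up 25.4 ± 0.248% in resistant and 53.1 ± 0.265% in sensitive libraries. KRT7 contributed 7.45 ± 0.164% in resistant and 0.0156 ± 0.0109% in sensitive libraries. KRT80 contributed 3.56 ± 0.179% in resistant and 0.0188 ± 0.00545% in sensitive libraries. KRT23 was the third keratin of the sensitive pool, at 0.0199 ± 0.0141% in resistant and 1.01 ± 0.296% in sensitive libraries. KRT5, KRT17, KRT19 and KRT20 each stayed under 1% in every library.

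**Figure D2:**
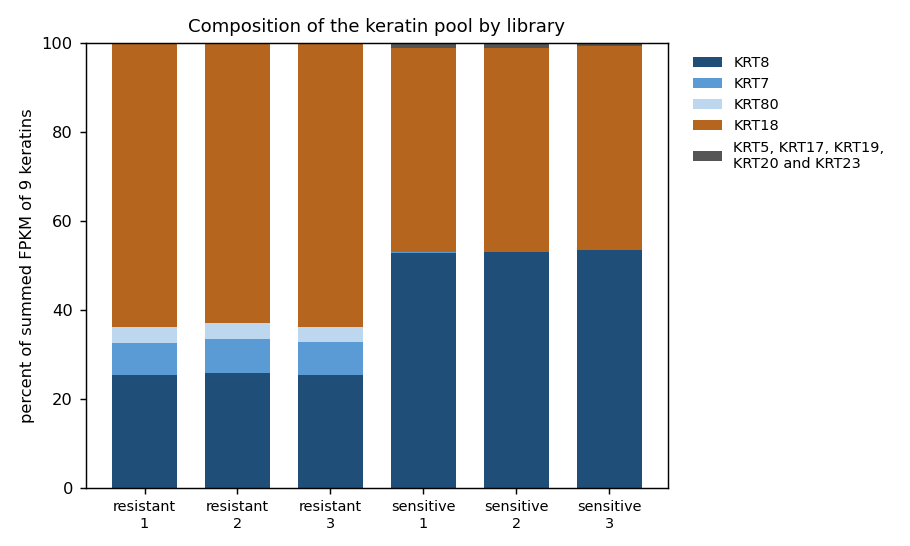
Stacked bars give each keratin as a percent of the summed FPKM of the 9 keratins in each library, with resistant libraries on the left, type II chains in blue and KRT18 in brown. KRT8 filled about 25% of each resistant bar and 53% of each sensitive one, and KRT7 with KRT80 filled on average 11.01% of the resistant bars and 0.0344% of the sensitive ones.

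KRT18 and KRT8 were close to equal in sensitive cells and far from equal in resistant ones. The ratio of KRT18 to KRT8 was 2.52, 2.43 and 2.51 in resistant libraries, against 0.868, 0.864 and 0.860 in sensitive ones. The ratio hardly varied within a group, even though KRT8 itself differed between the sensitive libraries. On the log2 scale it averaged 1.32 ± 0.0283 in resistant and -0.21 ± 0.00709 in sensitive cells. Type I chains summed to 905 ± 71.2 FPKM and type II chains to 519 ± 39.7 FPKM in resistant cells, and to 1412 ± 168 and 1602 ± 209 FPKM in sensitive cells. The ratio of type I to type II was 1.77, 1.69 and 1.77 in resistant libraries, against 0.891, 0.885 and 0.872 in sensitive ones. Within the type II sum of resistant cells KRT8 held 69.8 ± 0.488%, KRT7 20.4 ± 0.149% and KRT80 9.77 ± 0.341%, whereas KRT8 held 99.9 ± 0.0291% of it in sensitive cells. KRT18 held 99.6 ± 0.115% of the type I sum in resistant and 97.8 ± 0.626% in sensitive cells.

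VIM stood at 0.213, 0.216 and 0.227 of the keratin pool in resistant libraries, against 0.0357, 0.0364 and 0.0201 in sensitive ones. The higher ratio combined a higher VIM level with a smaller keratin sum. Keratins still exceeded VIM in all 6 libraries.

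**Figure D3:**
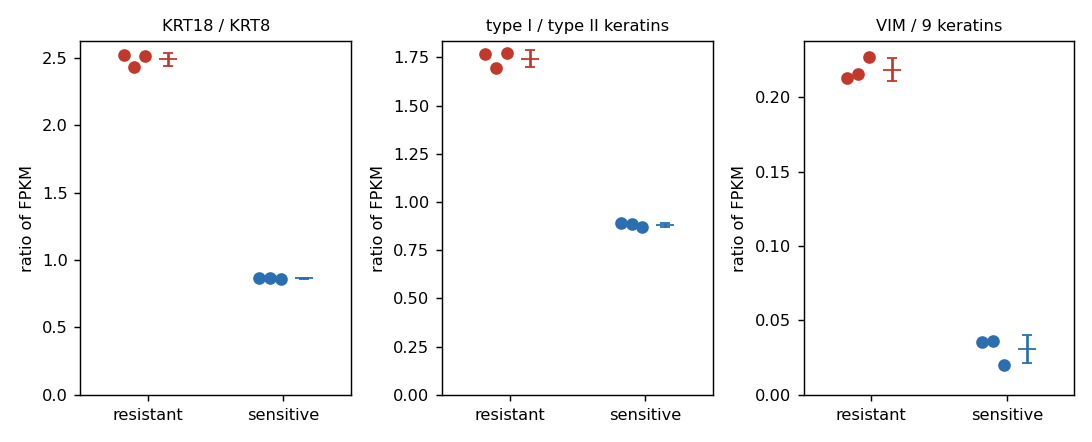
Ratios of FPKM in each library for KRT18 to KRT8, type I to type II keratins, and VIM to the 9 keratins, with points for libraries and bars for mean ± SD (n = 3), resistant on the left. In the KRT18 to KRT8 panel the resistant points lie between 2.43 and 2.52 and the sensitive ones between 0.860 and 0.868.

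Other keratin genes were low by comparison. The files held 39 keratin symbols, of which 26 were under 1 FPKM in every library. Symbols at 1 FPKM or more in all libraries of a group numbered 10 in resistant and 5 in sensitive cells. None of 13 other type II keratins in the files passed the filter. KRT81, a hair keratin, was the highest of them, at 0.172, 0.105 and 0.105 FPKM in resistant libraries, against 0.798, 1.20 and 0.722 FPKM in sensitive ones, and KRT86, a further hair keratin, did not exceed 0.155 FPKM.

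Of 17 other type I keratins in the files 6 were tested, 4 rose, 1 fell and 1 did not pass. Of these, KRT16, KRT33B and KRT34 passed the filter only through the resistant group and KRT222 only through the sensitive group, which fixed their direction, so nothing is read from the count. The hair keratin KRT34 was at 19.3, 15.7 and 9.65 FPKM in resistant libraries and listed at 0 in the sensitive ones. KRT33B, its neighbour and also a hair keratin, was at 5.64, 5.89 and 3.98 FPKM in resistant libraries and likewise listed at 0 in the sensitive ones. KRT33B and KRT34 shared a coding run of 113 bases, so the split of reads between them is uncertain. KRT16, a keratin of stressed and wounded epidermis, completed the 3 largest rises. The following genes were chosen after their values were seen. KRT15, a keratin of basal cells, rose, with 5.06 ± 1.06 FPKM in resistant and 0.982 ± 1.11 FPKM in sensitive cells (log2 fold change 1.73, limma adjusted p = 0.00462), and its highest sensitive value was 2.26 FPKM in replicate 3. KRT222, a keratin-like gene, fell to 0.0376 ± 0.0338 FPKM in resistant cells, against 3.34 ± 2.00 FPKM in sensitive ones. KRT10, the keratin of the upper epidermis, did not pass, with 13.2 ± 1.62 FPKM in resistant and 16.1 ± 6.92 FPKM in sensitive cells (log2 fold change -0.21, limma adjusted p = 0.510), and its sign turned without sensitive replicate 3, at 24.1 FPKM, and under rescaling to equal sums, as TPM.

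In chromosome order, the type I genes with a resistant level above 1 FPKM and little in sensitive cells did not form 1 block. The keratin-associated protein genes KRTAP2-3 and KRTAP2-4, which encode hair matrix proteins, lie in the same cluster and were also chosen after their values were seen. KRTAP2-3 was at 51.4, 42.2 and 24.9 FPKM in resistant libraries, against 0.0288, 0 and 0.118 FPKM in sensitive ones. KRTAP2-4 was at 16.5, 10.3 and 5.28 FPKM in resistant libraries and listed at 0 in the sensitive ones. KRT31, next to KRT34, stayed at or under 0.0157 FPKM in every library. KRT19, beside KRT15, was nearly absent, while KRT16 and KRT17 at the end of the cluster were present in resistant cells.

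**Figure D4:**
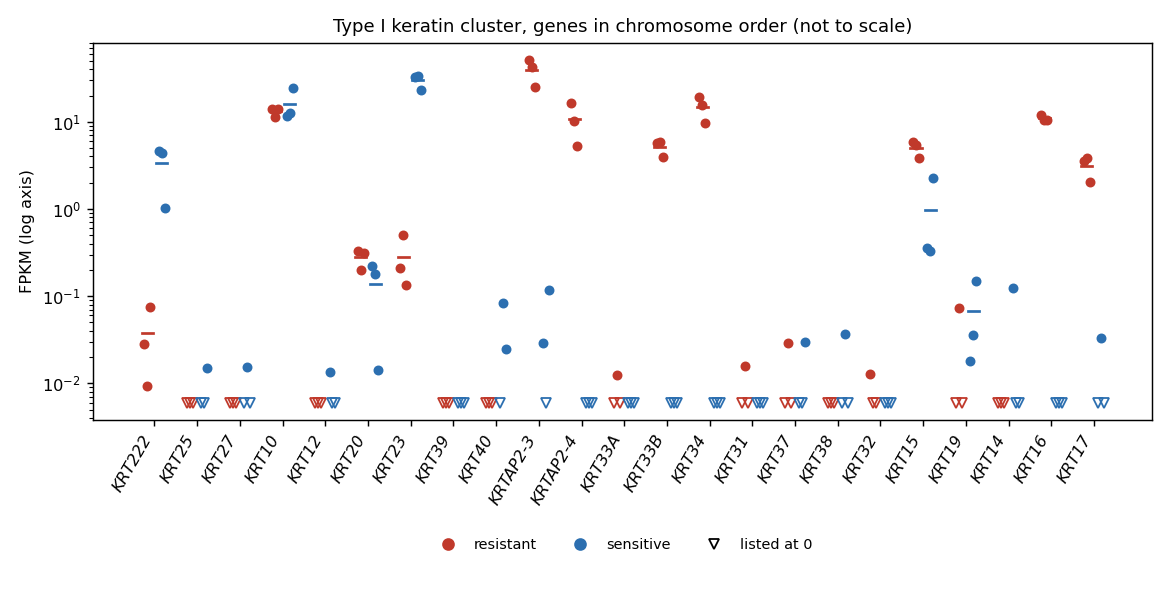
Level in FPKM (log axis) of type I keratins and of KRTAP2-3 and KRTAP2-4 in the order of their genes on chromosome 17, spaced evenly and not to scale, with 1 point per library, resistant in red on the left, a line at the mean of groups with no 0 and triangles for values listed at 0. Genes that were higher in resistant libraries are interrupted by genes near 0 in all 6 libraries, with KRT16 and KRT17 at the end of the cluster. Other KRTAP genes of the cluster are not drawn.

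Among other intermediate filament genes, 6 of 14 in the files were tested, and limma called 4 lower, 0 higher and 2 in neither direction. The shares over all tested genes were 32.5% lower and 35.2% higher. INA, the neuronal filament protein alpha-internexin, was at 0.126, 0.281 and 0.0234 FPKM in resistant libraries, against 33.1, 28.5 and 44.3 FPKM in sensitive ones (log2 fold change -4.97). NEFH, the heavy neurofilament chain, and SYNM, a filament linker protein that binds vimentin and desmin, fell by 2.04 and 2.04. LMNB2, a B-type lamin named after its level was looked at, fell by 0.58. INA, NEFH and SYNM stayed under 1 FPKM in all resistant libraries and passed the filter only through the sensitive group, which fixed their direction. Without sensitive replicate 3, and also with no filter, 1 gene of this list was called higher.

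Genes whose proteins link filaments to membranes and junctions were mixed. Of 16 linker and desmosome plaque genes in the files 13 were tested, 5 rose, 1 fell and 7 did not pass, beside 35.2% of all tested genes called higher. PKP3 and EVPL among the 5 passed the filter only through the resistant group. PLEC, the cytolinker plectin that ties keratin and vimentin filaments to hemidesmosomes and to actin, was at 74.7, 69.2 and 61.9 FPKM in resistant libraries, against 8.99, 8.27 and 8.57 FPKM in sensitive ones (log2 fold change 2.85, SE 0.110, limma adjusted p = 1.54e-06). The desmosomal plaque gene PKP3 was at 13.8 ± 1.26 FPKM in resistant and 0.236 ± 0.0525 FPKM in sensitive cells (log2 fold change 3.58). EVPL, the cornified envelope protein envoplakin, was at 6.04, 5.77 and 6.61 FPKM in resistant libraries, against 0.00386, 0.0114 and 0 FPKM in sensitive ones. The remaining called genes of the list were chosen after their values were seen. PPL, the envoplakin partner periplakin, and CSNK1A1, a kinase bound to keratin filaments, rose by 1.01 and 0.98, and plakoglobin (JUP) fell to 15.9 ± 0.972 FPKM in resistant cells, against 77.6 ± 4.03 FPKM in sensitive ones (log2 fold change -2.22). Without sensitive replicate 3, 7 genes of this list were called higher and 2 lower.

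**Figure D5:**
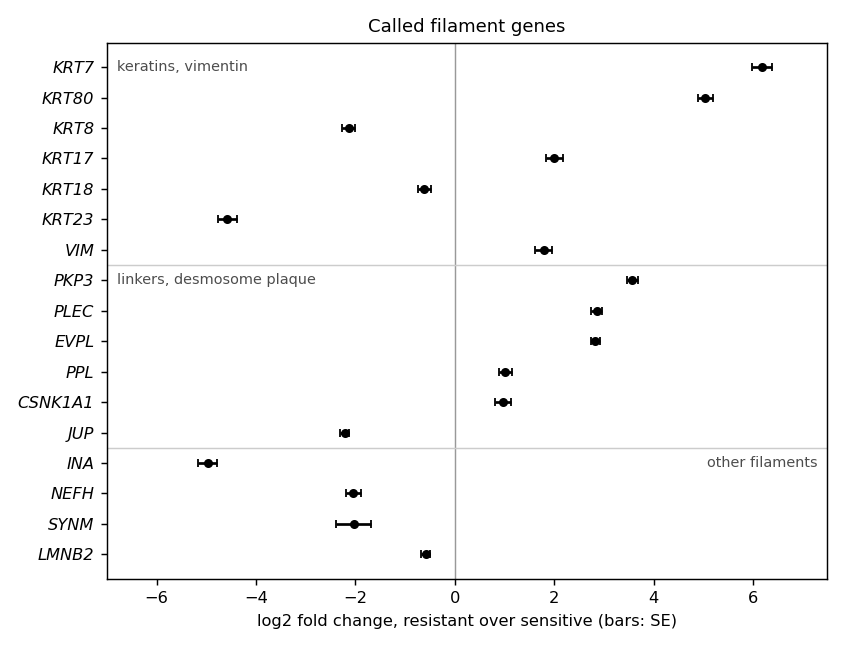
Log2 fold change, resistant over sensitive, with its SE for the 7 tested keratins and vimentin and for every called gene of the linker and other filament lists. KRT7 lies furthest to the right at 6.19, and INA furthest to the left at -4.97.

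Markers of other epithelia were read beside the keratins. Of 11 basal or squamous markers in the files 5 were tested and all 5 rose, among them SFN (659 ± 57.4 FPKM in resistant and 3.18 ± 0.725 FPKM in sensitive cells) and S100A2 (38.3 ± 8.24 FPKM in resistant and 1.07 ± 0.694 FPKM in sensitive cells). Their list summed to 802 to 942 FPKM in resistant and 6.74 to 8.10 FPKM in sensitive libraries, while the desmoglein DSG3 was listed at 0 in all 6 libraries and the basal regulator TP63 did not exceed 0.0251 FPKM. Of 12 cholangiocyte markers in the files 7 were tested, 2 rose, 4 fell and 1 did not pass. Their sum was 40.8 to 43.8 FPKM in resistant and 85.1 to 88.9 FPKM in sensitive libraries, and SOX4, GGT1 and ANXA4 had the log2 fold changes furthest below 0, at -2.45, -2.42 and -1.71. SOX9, a duct cell transcription factor, and CLDN4, a tight junction claudin, rose as KRT7 did and were named after their values were seen. SOX9 was at 11.4 ± 0.379 FPKM in resistant and 3.24 ± 1.29 FPKM in sensitive cells (log2 fold change 1.60, limma adjusted p = 0.000857), and CLDN4 at 2.38 ± 0.325 FPKM in resistant and 0.917 ± 0.295 FPKM in sensitive cells (log2 fold change 0.83, limma adjusted p = 0.00213). CFTR and SCTR, channel and receptor of bile duct cells, did not exceed 0.0831 FPKM. The part of these lists in the keratin levels was not tested.

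Markers of non-epithelial cells were low or mixed beside VIM. Of 12 fibroblast markers in the files 2 were tested, and ACTA2 and TAGLN both rose, beside 35.2% of all tested genes called higher. ACTA2 was at 2.77, 3.22 and 2.30 FPKM in resistant libraries and listed at 0 in sensitive ones. It passed the filter only through the resistant group, which fixed its direction. The call of TAGLN ended without resistant replicate 1 or 3 and without sensitive replicate 1 or 2 (limma adjusted p from 0.0734 to 0.0880). The TAGLN call also ended under quantile normalization (limma adjusted p = 0.126), scaling to the geometric mean sample (0.0534) and no filter (0.0609). The 12 fibroblast markers summed to 4.90 to 5.32 FPKM in resistant and 2.70 to 3.00 FPKM in sensitive libraries. The collagen COL1A1 was at or under 0.353 FPKM and DCN at or under 0.0147 FPKM in every library. Of 7 endothelial markers in the files 2 were tested, ESAM rose (log2 fold change 6.33) and EGFL7 did not pass, except without sensitive replicate 3, where it was called higher. That list summed to 178 to 213 FPKM in resistant and 10.2 to 15.2 FPKM in sensitive libraries, nearly all of it ESAM and EGFL7, with KDR listed at 0 and PECAM1 and CDH5 at or under 0.185 FPKM. Of 6 leukocyte markers in the files 2 were tested and both fell, beside 32.5% of all tested genes called lower. LYZ had a log2 fold change of -7.03 and CD68 one of -1.91. That list summed to 2.78 to 5.45 FPKM in resistant and 250 to 268 FPKM in sensitive libraries, and PTPRC, the pan-leukocyte antigen, was listed at 0 in all 6.

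The genes whose profiles over the 6 libraries were most like those of the main members were found by Euclidean distance between log2(FPKM + 1) values, each gene centred on its own mean, among 7395 tested genes of at least 5 FPKM on average. Nearest to VIM were ZMIZ2 (distance 0.10), PLXNA1 (0.14) and CDCA8 (0.15). Among the nearest to KRT7 were EMP3 (0.33) and LOXL2 (0.41). For KRT8 the nearest were PPIE (0.09), CALR (0.11) and EIF3G (0.12), and for KRT18 they were IDH3G (0.06), the ribosomal protein gene RPL19 (0.07) and MGAT2 (0.08).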

How the data were processed

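RNA-seq was analysed for 3 resistant and 3 sensitive libraries, grouped by their titles. Each library came as a table of symbols and values. FPKM as the unit of the deposited values was inferred, and RPKM could not be distinguished from it. The submitters' processing notes name cutadapt and HISAT2, with no role. Versions, counting program, build, annotation and strandedness: not given in the sources used here. Libraries used 1.5 µg of total RNA, per the labels' protocols. No batch is named there.

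Tests covered genes reaching 1 FPKM in 3 or more libraries, run with limma 3.58.1 (trend) in R 4.3.3 on log2(FPKM + 1), all 6 libraries in 1 fit of group with no block. Fold changes are on that scale and understate changes of low genes. Adjustment was Benjamini-Hochberg over 11694 genes, with calls at an adjusted p under 0.05. Residual degrees of freedom were 4 and prior ones 2.75. The fit was also run on simulated data in which few genes changed. Since 67.7% of tested genes were called here, that run does not bear on these calls. Errors are SD over 3 libraries or SE of limma. Because an exact 0 may stand for an estimate that failed, no fold is given against a group listed at 0. Reads behind low values came from the largest step that divides a gene's values to within 0.1 of a whole number. They are thus the fewest reads that those values allow. Steps of the 6 libraries lay between 0.976 and 1.01 times that of resistant replicate 1. Only ratios within 0.1 of 1 entered these steps, so their closeness was set in advance and does not show how close the depths were. The total number of reads is unknown. No pair of libraries shared an identical value above 0.

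The members and the 11 other lists were chosen with earlier results of these data known. Named genes were the members, up to 3 called genes of each list by size of change (the 2 highest where fewer than 2 were called) and the 3 nearest profiles to VIM, KRT7, KRT8 and KRT18. Some genes and sequences that these rules select are not reported here. Coding sequences were the longest complete ones in GENCODE release 29. Tables and figures used Python 3.11.15, pandas 2.3.3, numpy 2.4.6 and matplotlib 3.10.9.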

Additional observations from a re-analysis of the deposited data

How the results depend on the processing

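All 97 results of the 7 tested members under 14 alternative fits kept their direction and their side of the threshold. KRT7, KRT80, KRT17 and KRT23 passed the filter through the group in which they were high. Their direction was therefore fixed in every fit that kept a filter. All fits drew on the same libraries. KRT17 could not be fitted with a mean of at least 5 FPKM, which its level does not reach. The log2 fold change ranged from 1.88 to 4.83 for KRT17, 6.07 to 7.67 for KRT7, 4.93 to 6.28 for KRT80, -6.39 to -4.49 for KRT23, -2.22 to -1.90 for KRT8, 1.61 to 2.04 for VIM and -0.69 to -0.37 for KRT18 (limma adjusted p at most 0.0276), with the values furthest from 0 of KRT17, KRT7, KRT80 and KRT23 from the pseudocount of 0.1. With a mean of at least 5 FPKM, 4973 of 7396 tested genes were called, 2465 higher and 2508 lower, from fewer genes tested. Rescaling to equal sums, as TPM, moved the median of all genes by 0.23 on the log2 scale, to 0.31, and all 7 calls held there. KRT10, which was not called, turned to 0.015 under that rescaling and ranged from -0.39 to 0.10 when 1 library was left out. Widening the pool to all 39 keratin symbols changed the differences, resistant minus sensitive, to 7.18 percentage points for KRT7, -28.1 for KRT8, 15.6 for KRT18, -12.5 for KRT8 with KRT18, 10.6 for KRT7 with KRT80, and 1.04 for the log2 ratio of type I to type II. With the replicate number as a block, 7 members and 7193 genes were called. Deviations of same-numbered libraries from their group means correlated at r of -0.42, 0.07 and -0.23. Each group mean rests on 3 libraries, and sensitive replicate 3 deviated against replicates 1 and 2 of its group (r of -0.94 and -0.86). These values therefore cannot decide whether the numbers pair the libraries. The pool with KRT8 and KRT18 pseudogenes was not run, since the files hold 0 of those symbols. Depth limits KRT5, KRT19 and KRT20, which rest on at most 23 reads a library if the largest fitting step is 1 read.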

Other observations

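Regulators of simple epithelium moved in both directions. Of 11 in the files 8 were tested, 5 rose and 3 fell, beside 35.2% of all tested genes called higher and 32.5% lower. With the replicate number as a block, and without resistant replicate 1 or 2, 3 were called higher. KLF4, a zinc finger factor of epithelial differentiation, was at 105, 108 and 111 FPKM in resistant libraries, against 3.01, 3.36 and 8.15 FPKM in sensitive ones (log2 fold change 4.33). TFAP2C, an AP-2 factor, was at 21.8, 22.3 and 22.7 FPKM in resistant libraries, against 1.10, 1.18 and 2.51 FPKM in sensitive ones (log2 fold change 3.20). The epithelial splicing regulator ESRP2 was at 0.0482, 0.103 and 0.0257 FPKM in resistant libraries, against 8.18, 8.86 and 8.53 FPKM in sensitive ones. Its relative ESRP1, chosen after its values were seen, was at 3.46, 4.01 and 3.93 FPKM in resistant libraries, against 0, 0 and 0.0131 FPKM in sensitive ones. Each of the ESRP genes passed the filter through the group in which it was high.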
